A study of Mus musculus with 4 samples.

Results

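The genes described here encode the Janus kinases (Jak1, Jak2, Jak3 and Tyk2) and 5 of the signal transducers and activators of transcription, or STATs (Stat3, Stat4, Stat5a, Stat5b and Stat6). These 9 members were taken by name from the 20599 gene symbols in the deposited tables. Each had a single gene entry, and all 9 passed the filter on low counts. Transcript levels were compared between 2 libraries of peritoneal B1a cells and 2 libraries of splenic follicular B2 cells. All 4 libraries came from wild-type C57BL/6 mice, which by the methods were littermate controls of mice that lack Dnmt3a in the B lineage. The methods describe a sort for CD23- IgM+ CD5+ cells from peritoneal washes and for IgDhi IgMlo CD21+ cells from spleen. The labels give an age of 4 weeks for every library, whereas the methods give an older age for the mice that provided B2 cells. Differences of cell type, tissue and possibly age therefore cannot be told apart.

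Cytokine receptors without an enzymatic domain of their own signal through JAKs, which are bound to their intracellular tails and are activated when ligand brings receptor chains together. The JAKs phosphorylate the receptor, a STAT docks there and is phosphorylated in turn, and STAT dimers enter the nucleus and bind DNA. In B cells this pathway carries signals of IL-4 and IL-21 (through Jak1 and Jak3), of IL-5 (through Jak2), of the IL-6 family (through Jak1) and of interferons (through Jak1 with Tyk2 or Jak2). SOCS proteins, which STATs induce, close a negative feedback loop.

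Totals lay between 11032732 and 18588623 counts per library. Replicates of B1a cells resembled each other less (Pearson r = 0.836 for log2 CPM over the 12078 tested genes, which are not independent) than replicates of B2 cells (r = 0.966), and pairs across the cell types gave r between 0.788 and 0.858. All 7 B cell marker genes examined (such as Ms4a1, Cd79a and Pax5) exceeded 3 counts in every library, and their summed level lay between 5887 and 6546 CPM. CPM here is the count scaled to library size with TMM factors, whereas TPM also corrects for transcript length and is used wherever genes are compared with each other. In bulk libraries, fewer cells that express a gene and less RNA per cell cannot be told apart.

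Among the 9 members, Stat4 was lower in B1a cells and was called below an adjusted p of 0.05 in the quasi-likelihood test of edgeR. The other 8 members did not pass this test, and 0 of 9 were called higher in B1a cells (3 were below 0.05 before adjustment, and DESeq2 called 2). Of all 12078 genes tested, 5.74% were called, 4.24% higher in B1a and 1.50% higher in B2 cells, so that 1 call among 9 genes is no result about the family. The libraries of the cell types did not overlap in CPM for 7 of the 9 members (77.8%, against 54.3% of all tested genes). Among these, Jak2, Jak3, Tyk2 and Stat3 lay higher in B1a cells, and Jak1, Stat4 and Stat6 lay lower. The median log2 fold change (B1a minus B2) was -0.12 over the members and -0.03 over all tested genes.

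**Figure D1:**
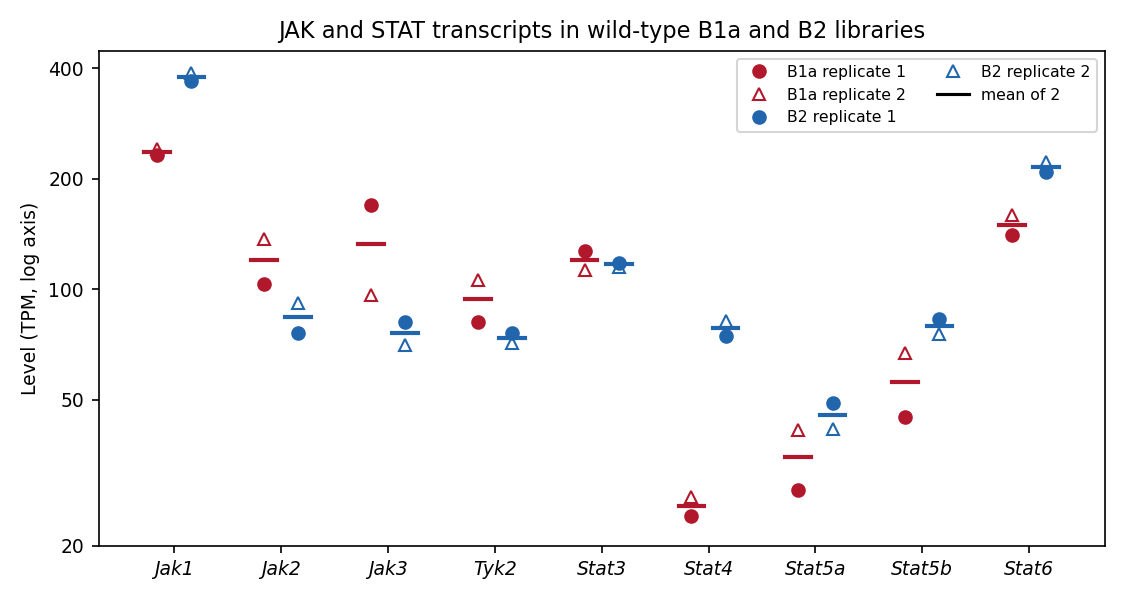
Level of each member in TPM (log axis) in the 2 B1a libraries (red) and the 2 B2 libraries (blue); circles are replicate 1, open triangles replicate 2 and lines the mean of the replicates. Stat4 lay at 24.1 and 27.1 TPM in B1a and at 74.7 and 81.9 TPM in B2 cells, and Jak1 was the highest member in all 4 libraries.

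Stat4, which transmits IL-12 and type I interferon signals in T and NK cells, was found at 338.9 and 388.5 counts in the B1a replicates and at 922.2 and 1703.9 counts in the B2 replicates. The B1a libraries therefore lay below the B2 libraries, also after scaling. Scaled to library size, this was 32.7 ± 3.22 CPM in B1a against 84.5 ± 6.42 CPM in B2 cells (mean ± SD of 2). The log2 fold change was -1.37 with a standard error (SE) of 0.23, and the edgeR p-value after Benjamini-Hochberg adjustment was 0.0275. Of the 11 alternatives that kept the 4 libraries, the limit to log2 fold changes of 1 or more in either direction reused the main p-values. There Stat4 could only pass, and genes with smaller changes could only fail. Stat4 stayed past the threshold in all 11. It lost the call without B2 replicate 1 (adjusted p = 0.122) and without B2 replicate 2 (adjusted p = 0.262), when the fit has a single B2 library, while the log2 fold change stayed between -1.48 and -1.28 in every fit with a library left out.

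T cells and NK cells also express Stat4, so their markers were counted in the same libraries. The 9 measured T cell markers summed to 126 and 73.4 CPM in the B1a replicates and to 92.2 and 91.4 CPM in the B2 replicates. Lck held the largest part of each sum, at 56.5 and 45.1 CPM in B1a and 44.5 and 39.7 CPM in B2 cells. Of the 9 markers, 4 had a positive log2 fold change. EdgeR called 0 of the 9, with 2 below 0.05 before adjustment, and DESeq2 called 2, both higher in B2 cells. Cd4 and Thy1 were at 0 counts in both B1a libraries. In B2 cells these 2 genes lay between 3.21 and 5.38 CPM, and all 9 markers exceeded 3 counts in both libraries, against 5 markers in B1a cells. The 8 NK cell markers summed to 3.13 and 1.52 CPM in B1a cells and to a higher level in both B2 libraries, with 11.4 CPM in replicate 2. Of these markers, 6 were at 0 counts in both B1a libraries, Ncr1 and Klrb1c among them, and 0 were at 0 in both B2 libraries. Only 4 of the 8 exceeded 3 counts in both B2 libraries, against 1 in both B1a libraries. Ncr1 was at 4.0 counts in B2 replicate 1 and at 0 in B2 replicate 2. The NK cell sum thus moved with Stat4, and its part in the Stat4 difference was not tested.

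Stat4 lies on chromosome 1 of GRCm38 from 51987106 to 52107189. Stat2, which takes part in type I interferon signaling and is not among the members, lies on chromosome 10 and stood at 80.1 and 96.1 CPM in B1a against 152 and 153 CPM in B2 cells. Stat2 missed the threshold, with log2 fold change -0.79 (SE 0.17, adjusted p = 0.0578), and passed in 7 of the 11 alternatives. It passed without B1a replicate 1 (8.72e-04) or 2 (1.46e-06) and not without B2 replicate 1 (0.404) or 2 (0.435).

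As the study concerns CpG methylation, the stretch before the start of the called member is shown beside that of Jak2, the kinase with the most CG dinucleotides there. Windows are the 250 bases before an annotated RefSeq transcript start in GRCm38.p6. The Jak2 window is shown whole (chr19:29251553-29251802, forward strand). The first Stat4 window reaches 42 bases into the RefSeq gene, so only the 208 bases before the gene are shown (chr1:51986898-51987105, forward strand). Neither stretch overlaps an exon in the GENCODE annotation. Capitals mark CG dinucleotides.
Stat4: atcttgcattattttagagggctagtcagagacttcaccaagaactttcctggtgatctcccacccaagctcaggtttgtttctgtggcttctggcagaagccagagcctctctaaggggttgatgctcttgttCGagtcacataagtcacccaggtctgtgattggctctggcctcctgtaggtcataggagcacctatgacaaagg
Jak2: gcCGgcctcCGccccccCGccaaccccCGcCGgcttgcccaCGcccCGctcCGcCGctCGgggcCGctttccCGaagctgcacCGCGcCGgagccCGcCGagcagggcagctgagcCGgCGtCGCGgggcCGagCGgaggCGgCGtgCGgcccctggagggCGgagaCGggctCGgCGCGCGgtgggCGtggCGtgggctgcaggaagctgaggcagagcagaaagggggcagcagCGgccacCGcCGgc
The first Stat4 window holds 1 CG dinucleotide, which lies in the stretch shown, and that of its other annotated start holds 3, against a median of 6.0 over all 32851 such windows. The Jak2 stretch holds 37, and 98.1% of all windows hold as many or fewer. Jak1 and Tyk2 have 19 each, Stat3 13, Jak3 8 and Stat6 6, while Stat5a and Stat5b have starts of both kinds, with 5 and 21 for Stat5a and with 40 and 5 for Stat5b. The methylation of these bases was not analyzed here.

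**Figure D2:**
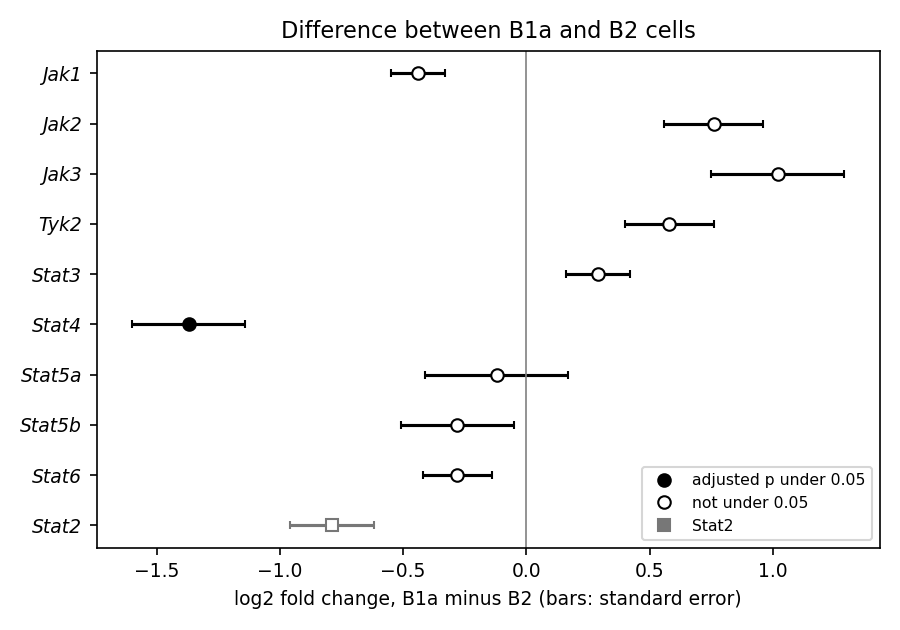
Log2 fold change between B1a and B2 cells for the 9 members (circles) and for Stat2 (square), with bars for the standard error of edgeR's quasi-likelihood fit; filled symbols have an adjusted p under 0.05. Stat4 (-1.37) is filled, and Jak2 (0.76), Jak3 (1.02) and Tyk2 (0.58) lie on the other side of 0 from Jak1 (-0.44).

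Jak1, which serves the receptors of the common gamma chain, gp130, interferon and IL-10 families, had the highest TPM of all members in each library. It stood at 524 and 556 CPM in B1a against 709 and 758 CPM in B2 cells. The cell types did not overlap, but Jak1 missed the threshold, with log2 fold change -0.44 (SE 0.11, adjusted p = 0.0853). It passed in 5 of the 11 alternatives, with adjusted p-values between 0.00145 and 0.0896 apart from the alternative that limited the fold change, and among the fits with a library left out it passed without B1a replicate 1 (0.00184) or 2 (5.61e-05) and not without B2 replicate 1 (0.394) or 2 (0.737). Jak1 lies on chromosome 4 from 101151974 to 101265282.

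The other kinases were more abundant in each B1a library than in either B2 library, and 0 of the 3 passed the test. Jak2, on chromosome 19 from 29251803 to 29313095, is the kinase of the receptors for IL-3, IL-5 and GM-CSF. It stood at 223 and 303 CPM in B1a against 139 and 171 CPM in B2 cells, with log2 fold change 0.76 (SE 0.20, adjusted p = 0.0999). Jak3, on chromosome 8 from 71676383 to 71690577, binds the common gamma chain. Its log2 fold change of 1.02 was the largest increase among the members, but the B1a replicates differed by more than the B2 replicates did, at 265 and 155 CPM against 109 and 97.3 CPM (SE 0.27, adjusted p = 0.101). Without B1a replicate 1, the Jak3 log2 fold change was 0.58, and without B1a replicate 2 it was 1.36. Tyk2, on chromosome 9 from 21104068 to 21131393, serves type I interferon and IL-12 receptors and stood at 167 and 223 CPM in B1a against 133 and 127 CPM in B2 cells. The Tyk2 log2 fold change was 0.58 (SE 0.18, adjusted p = 0.152). In the 11 alternatives Jak2 passed in 4, Jak3 in 5 and Tyk2 in 1, with adjusted p-values reaching 0.225, 0.218 and 0.347 apart from the same alternative, and the log2 fold change of each stayed above 0. With a library left out, Jak2 passed without B1a replicate 1 (adjusted p = 2.65e-10) or 2 (0.00180), Jak3 passed in all such fits except that without B2 replicate 2 (0.111), and Tyk2 passed without B1a replicate 1 (6.79e-06). Fits with a single B1a library take the spread from the B2 libraries alone.

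The balance of the kinases within a library does not depend on how libraries are scaled to each other. Jak1 made up 39.5% and 41.4% of the summed TPM of the 4 JAK genes in the B1a replicates and 61.3% and 62.5% in the B2 replicates. The share of Jak1 was thus below that in B2 cells in both B1a libraries. The TPM ratio of Jak1 to Jak2 was 2.24 and 1.75 in B1a and 4.85 and 4.24 in B2 cells. For Jak1 to Jak3 the TPM ratio was 1.37 and 2.48 in B1a and 4.54 and 5.52 in B2 cells. The summed TPM of the 4 JAK genes lay close together, at 586 and 579 in B1a and 602 and 621 in B2 cells. Unlike the shares, this sum depends on the scaling. On the log2(TPM + 1) scale the median log2 fold change over all tested genes was -0.30. These shares and ratios are given as descriptions, since 2 libraries against 2 cannot give an exact permutation p below 0.33.

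**Figure D3:**
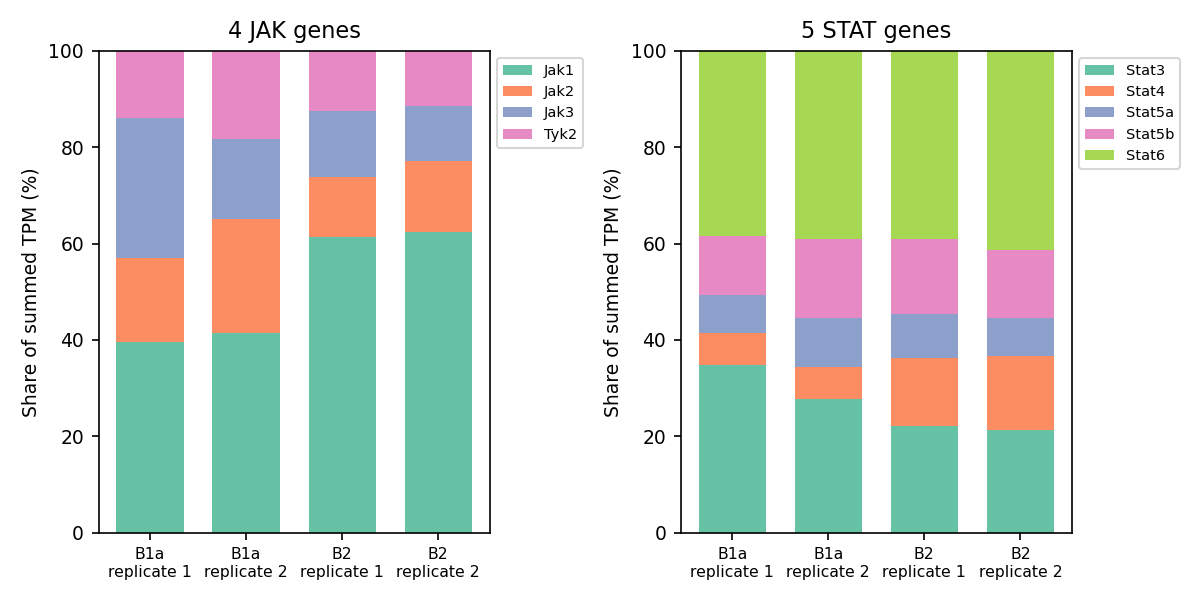
Share (%) of each gene in the summed TPM of the 4 JAK genes (left) and of the 5 STAT members (right) in each library. Jak1 takes 39.5% and 41.4% of the JAK sum in B1a and 61.3% and 62.5% in B2 libraries, and Stat3 takes 34.9% and 27.8% of the STAT sum in B1a against 22.2% and 21.4% in B2 libraries.

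Stat3, Stat5a and Stat5b lie side by side on chromosome 11, with Stat5b from 100780731 to 100859004, Stat5a from 100859351 to 100885169 and Stat3 from 100886806 to 100939594. Gaps of 346 and 1636 bases separate them, and 0 of the 3 passed the test. Stat3, which IL-6, IL-10 and IL-21 activate, stood at 243 and 222 CPM in B1a against 192 and 189 CPM in B2 cells. The Stat3 difference missed the threshold, with log2 fold change 0.29 (SE 0.13, adjusted p = 0.289, and 0.0315 without B1a replicate 2), and on the TPM scale the cell types overlapped, at 127 and 113 TPM in B1a and 118 and 115 TPM in B2 cells. The Stat3 entry covers 3 transcripts, and the counts do not separate its isoforms.

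Stat5a and Stat5b are close paralogs that IL-2, IL-3, IL-5 and IL-7 activate. Stat5a stood at 43.5 and 66.8 CPM in B1a against 65.0 and 54.9 CPM in B2 cells, and Stat5b at 96.8 and 146 CPM in B1a against 153 and 142 CPM in B2 cells. B1a replicate 1 was the lowest library for both genes, and the cell types overlapped in CPM. Neither log2 fold change passed, at -0.12 for Stat5a (SE 0.29, adjusted p = 0.879) and -0.28 for Stat5b (SE 0.23, adjusted p = 0.565). Without B1a replicate 1 the Stat5b value was -0.02 (adjusted p = 0.938), and without B1a replicate 2 it was -0.61 (adjusted p = 0.00179). The sign for Stat5a depended on single libraries, with a log2 fold change between -0.46 and 0.16 when each was left out. The TPM of Stat5b exceeded that of Stat5a in every library, by 1.57 and 1.61 times in B1a and 1.69 and 1.82 times in B2 cells. Reads that fit both genes were divided between them by RSEM, and the posterior standard deviation of the counts was between 0.917% and 1.12% of the count for Stat5a and between 0.353% and 0.507% for Stat5b, which is far below the difference between the B1a replicates.

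Stat6, which IL-4 and IL-13 activate, lies on chromosome 10 from 127642955 to 127660987. It stood at 226 and 263 CPM in B1a against 287 and 309 CPM in B2 cells. The groups did not overlap, and the log2 fold change of -0.28 did not pass (SE 0.14, adjusted p = 0.321, between 0.105 and 0.388 in the alternatives other than the limit on the fold change, and 0.00999 without B1a replicate 2). Stat6 was the most abundant of the 5 STAT members by TPM in every library, with 38.4% and 39.0% of their summed TPM in B1a and 39.1% and 41.4% in B2 cells. Stat4 made up 6.62% and 6.64% of this sum in B1a and over 2 times as much in both B2 libraries, with 15.3% in replicate 2. The summed TPM of the 5 STAT members was 364 and 407 in B1a and 533 and 535 in B2 cells. On the log2(TPM + 1) scale the median over all tested genes moved to -0.30, so that TPM levels in B1a cells are read against this shift, and the log2 fold changes on that scale were -1.58 for Stat4, -0.52 for Stat6 and -0.68 for Jak1.

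By mean TPM the members fell in the order Jak1 (236 ± 5.74), Stat6 (149 ± 13.3), Jak3 (133 ± 51.5), Stat3 (120 ± 9.67), Jak2 (120 ± 23.8), Tyk2 (93.8 ± 17.3), Stat5b (55.8 ± 15.6), Stat5a (34.9 ± 9.16) and Stat4 (25.6 ± 2.07) in B1a cells (SD, n = 2). Neighbours from Stat6 to Tyk2 in this order had overlapping replicate ranges. In B2 cells the order was Jak1 (378 ± 13.7), Stat6 (215 ± 9.09), Stat3 (117 ± 2.40), Jak2 (83.7, with replicates at 75.9 and 91.5), Stat5b (79.2 ± 5.07), Stat4 (78.3 ± 5.08), Jak3 (75.7 ± 7.66), Tyk2 (73.6 ± 3.42) and Stat5a (45.3 ± 5.30), and neighbours from Jak2 to Tyk2 overlapped. Stat4 was thus the lowest member by TPM in B1a cells and one of 5 members at a like TPM in B2 cells.

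The receptors, inhibitors and target genes around the JAKs and STATs were taken from lists of 82 genes, of which 74 were tested. Of these, 14 were called higher in B1a and 4 higher in B2 cells (24.3% called, against 5.74% of all tested genes), and the median log2 fold change was 0.06. The lists were chosen with earlier results of these data known, so this share is no result about the pathway. The same holds for the counts of calls in each list below. Over all tested genes, 4.24% were called higher in B1a and 1.50% higher in B2 cells. The calls of the pathway lists held in all 10 alternatives with the same threshold for 11 of the 18 genes.

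**Figure D4:**
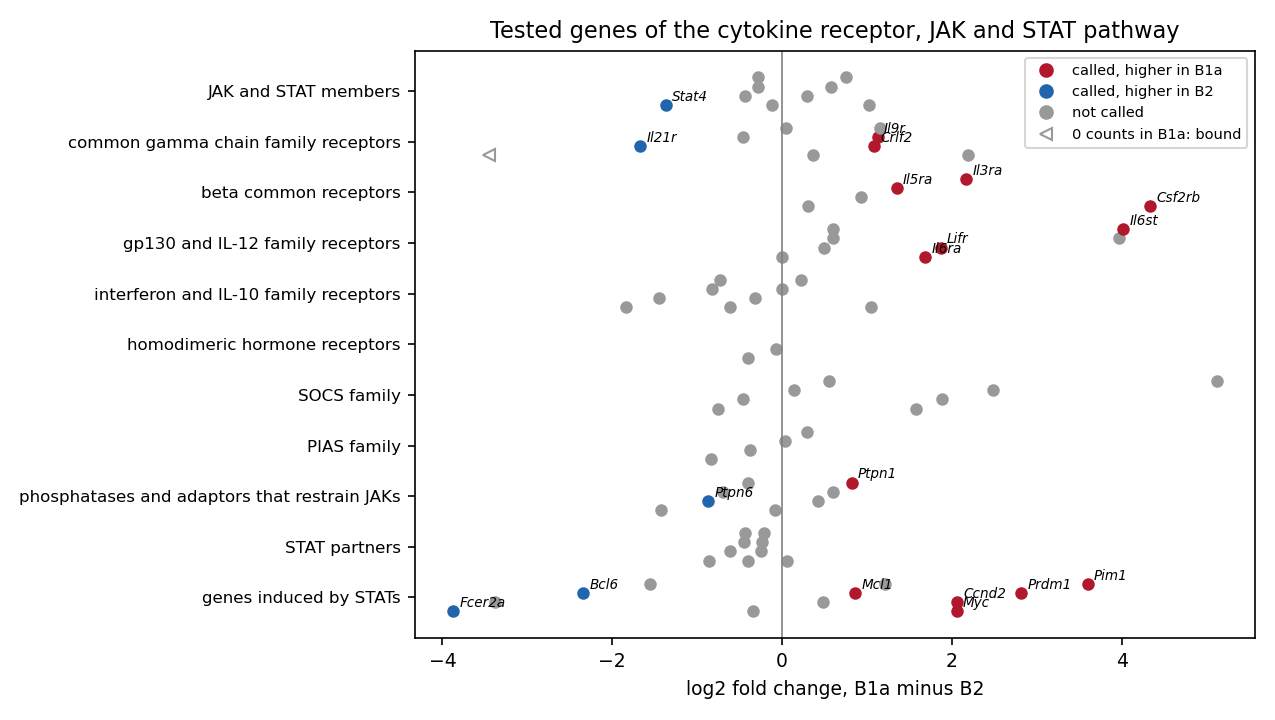
Log2 fold change (B1a minus B2) of the tested members and of the tested genes of each pathway list; red and blue points were called higher in B1a and in B2 cells, grey points were not called, and the open triangle is a bound for Il7r, which had 0 counts in both B1a libraries. Csf2rb (4.34) and Il6st (4.02) lie farthest to the right among called genes, and Fcer2a (-3.87) farthest to the left.

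Receptors of the beta common family, which signal through Jak2 to Stat5, were called higher in B1a cells for 3 of 5 tested genes, and 0 were called lower. Csf2rb, the shared beta chain, stood at 542 and 427 CPM in B1a against 22.7 and 24.9 CPM in B2 cells, with log2 fold change 4.34 (SE 0.19, adjusted p = 5.40e-04). Its near-identical neighbor Csf2rb2 shares reads with it and stood at 61.2 and 94.9 CPM in B1a against 73.4 and 52.6 CPM in B2 cells, and the posterior standard deviation of the count was 1.35% or less of that count for either gene. The ligand-binding chains Il5ra and Il3ra were also called, at a log2 fold change of 1.35 for Il5ra (adjusted p = 0.00486) and 2.17 for Il3ra (adjusted p = 0.0403). Il3ra lost the call when either B2 library was left out. The 10 measured macrophage markers, of cells that also carry receptors of this family, summed to 222 and 270 CPM in B1a and 71.2 and 76.3 CPM in B2 cells. Of 9 tested genes 8 had a positive log2 fold change, with Lyz2 called (2.57) and Csf1r at -0.03. Emr1 (1.72), C1qa (1.97) and Cd68 (1.69) were not called by edgeR but were below 0.05 before adjustment. Fcgr1 was not tested, with 0 counts in both B1a libraries and 5.0 and 0 counts in the B2 libraries. Mast cell markers summed to 46.1 and 16.5 CPM in B1a and 1.47 and 0.941 CPM in B2 cells. The part of either cell type in the receptor differences was not tested.

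Receptors of the gp130 and IL-12 family, which signal through Jak1, Jak2 and Tyk2 to Stat3 and Stat4, were called higher in B1a cells for 3 of 8 tested genes. Il6st, which encodes the shared chain gp130, stood at 460 and 716 CPM in B1a against 37.3 and 35.2 CPM in B2 cells, with log2 fold change 4.02 (SE 0.25, adjusted p = 0.00145). Il6ra and Lifr, which pair with gp130, were called at 1.69 (adjusted p = 0.00904) and 1.87 (adjusted p = 0.0100) on the log2 scale, and Lifr lost the call on both TPM scales. Il12rb1, a chain of the receptors that activate Stat4, stood at 27.4 and 13.7 CPM in B1a against 1.91 and 0.732 CPM in B2 cells, and missed the threshold, with log2 fold change 3.97 (SE 0.85, adjusted p = 0.0572). Levels of Il12rb1 were thus on the opposite side from those of Stat4.

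Most receptors on the list of the common gamma chain family use Jak1 and Jak3, and 2 of 9 tested genes were called higher in B1a and 1 was called lower. Il9r was higher by 1.13 (adjusted p = 0.0151) and Crlf2, which encodes the TSLP receptor chain and pairs with Il7r rather than the gamma chain, by 1.09 (adjusted p = 0.0415) on the log2 scale, and Il21r was lower, at 115 and 86.2 CPM in B1a against 352 and 289 CPM in B2 cells (log2 fold change -1.67, adjusted p = 0.00885). Il9r lost the call on the log2(TPM + 0.1) scale, and Crlf2 lost it on both TPM scales, with upper quartile factors and without either B2 library. Il2rb, at 15.8 and 34.1 CPM in B1a against 6.34 and 4.60 CPM in B2 cells, did not pass (adjusted p = 0.110). Il7r had 0 counts in both B1a libraries and 33.2 and 57.0 counts in the B2 libraries, and did not pass (adjusted p = 0.134). With 3 counts per library taken as the floor, Il7r was at least 10.9-fold higher in B2 cells, at 2.88 and 2.98 CPM. The T cell markers Cd4 and Thy1 were also at 0 in both B1a libraries and between 3.21 and 5.38 CPM in B2 cells, while 4 of 9 such markers had a positive log2 fold change. The part of T cells in the Il7r difference was not tested.

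Receptors of the interferon and IL-10 family gave 0 calls among 9 tested genes by edgeR and 2 by DESeq2 and by limma-voom, with 4 genes below 0.05 before adjustment, all with a negative log2 fold change. These were Ifngr2 (-0.82, adjusted p = 0.0574), a chain of the interferon gamma receptor, Il10ra (-0.61, adjusted p = 0.0584), which binds IL-10, and Ifnar1 (-0.32) and Ifnar2 (-0.73), the chains of the type I interferon receptor. Ifngr2 was called in 9 and Il10ra in 8 of the 11 alternatives, and Ifnar1 and Ifnar2 in 0. Il22ra1 had the largest change, at 5.79 and 1.34 CPM in B1a against 13.1 and 12.7 CPM in B2 cells (log2 fold change -1.84, adjusted p = 0.347), followed by Ifnlr1 (-1.45, adjusted p = 0.770), and with a library left out these ranged from -3.25 to -1.14 and from -8.69 to -0.45. Of the hormone receptors that act as homodimers, Prlr (-0.40) and Lepr (-0.07) were tested, and neither was below 0.05 before adjustment or called by DESeq2 or limma-voom.

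Of the inhibitors of the pathway, 1 gene was called in each direction. Among 8 tested SOCS family genes edgeR called 0, with 2 below 0.05 before adjustment, and DESeq2 called 2 higher in B1a cells and limma-voom 0. Cish, a target and inhibitor of Stat5, stood at 5.02 and 20.3 CPM in B1a against 0.520 and 0.209 CPM in B2 cells (log2 fold change 5.12, SE 1.27, adjusted p = 0.0878). Socs3, an inhibitor of gp130 signaling, stood at 46.7 and 12.3 CPM in B1a against 5.55 and 4.91 CPM in B2 cells (log2 fold change 2.49, SE 0.73, adjusted p = 0.129). For both genes the B1a libraries lay above the B2 libraries, with a wide spread between the B1a replicates. Of the phosphatases and adaptors, Ptpn1 (PTP1B) was called higher in B1a cells at 309 and 347 CPM against 192 and 180 CPM (log2 fold change 0.82, adjusted p = 0.0254), and it lost the call on both TPM scales and without either B2 library. Ptpn6 (SHP-1) was called lower, at 451 and 356 CPM in B1a against 767 and 710 CPM in B2 cells (log2 fold change -0.87, adjusted p = 0.0283). Usp18 stood at 8.34 and 0 CPM in B1a against 10.2 and 12.1 CPM in B2 cells and did not pass. The PIAS family and the STAT partners gave 0 calls among 4 and 9 tested genes by edgeR and by limma-voom (1 and 2 below 0.05 before adjustment, 0 and 2 called by DESeq2). Those below 0.05 before adjustment were Pias2 (-0.84), Crebbp (-0.44) and Ep300 (-0.45). Pias3 (-0.38), Stam2 (-0.86) and Stam (-0.61) were not, though with Pias2 they had the largest log2 fold changes of these lists.

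Of 12 tested genes that STATs are known to induce, 5 were called higher in B1a and 2 lower (58.3%, against 5.74% of all tested genes). This list too was chosen with earlier results of these data known. Pim1, a survival kinase, stood at 450 and 425 CPM in B1a against 38.4 and 33.9 CPM in B2 cells, with log2 fold change 3.60 (SE 0.15, adjusted p = 5.40e-04). Myc and Ccnd2, which drive growth and cell cycle entry, had log2 fold changes of 2.06 each (adjusted p = 0.00420 and 0.00463), and the survival factor Mcl1 had 0.86 (adjusted p = 0.00771). Prdm1, the plasma cell regulator Blimp-1, was called at 22.4 and 36.2 CPM in B1a against 4.16 and 4.13 CPM in B2 cells (log2 fold change 2.82, adjusted p = 0.0346), and lost the call with limma-voom, on both TPM scales and without either B2 library. Mcl1 lost it on the log2(TPM + 0.1) scale. All of these genes also respond to other pathways.

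Bcl6, the repressor that directs germinal center B cells, and Fcer2a, which encodes CD23 and is induced by IL-4 through Stat6, were called lower in B1a cells. Bcl6 stood at 43.8 and 15.9 CPM in B1a against 143 and 159 CPM in B2 cells, with log2 fold change -2.34 (SE 0.47, adjusted p = 0.0469), and it lost the call on both TPM scales and with entries left unsummed. Fcer2a stood at 63.7 and 60.9 CPM in B1a against 934 and 896 CPM in B2 cells, with log2 fold change -3.87 (SE 0.12, adjusted p = 3.00e-04). B1a cells were sorted as CD23-, so the Fcer2a difference follows the sort and is not independent of it.

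STAT dimers bind TTC and GAA with 3 bases between them for most STATs and 4 for Stat6. The patterns searched, TTCNNNGAA and TTCNNNNGAA, read the same on either strand, and a match to one cannot begin at the same base as a match to the other. Among all 32851 windows of 250 bases before a RefSeq start, 7.02% hold TTCNNNGAA, 5.85% hold TTCNNNNGAA and 12.4% hold either. Of the 12 windows of the 9 members, 0 hold either pattern. Both genes called lower have several annotated starts. Of the Bcl6 windows both hold a match to TTCNNNGAA, and of 3 Fcer2a windows 1 holds a match. The Bcl6 window with the most matches and the Fcer2a window with a match are shown, which lie inside the respective gene, on the reverse strand and outside GENCODE exons (chr16:23981284-23981533 for Bcl6, chr8:3690862-3691111 for Fcer2a, GRCm38.p6). Capitals mark the matches.
Bcl6: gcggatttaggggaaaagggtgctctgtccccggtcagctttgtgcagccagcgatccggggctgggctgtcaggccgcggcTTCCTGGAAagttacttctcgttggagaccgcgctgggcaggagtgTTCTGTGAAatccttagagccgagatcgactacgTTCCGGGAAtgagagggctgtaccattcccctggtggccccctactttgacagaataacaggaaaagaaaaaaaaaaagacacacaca
Fcer2a: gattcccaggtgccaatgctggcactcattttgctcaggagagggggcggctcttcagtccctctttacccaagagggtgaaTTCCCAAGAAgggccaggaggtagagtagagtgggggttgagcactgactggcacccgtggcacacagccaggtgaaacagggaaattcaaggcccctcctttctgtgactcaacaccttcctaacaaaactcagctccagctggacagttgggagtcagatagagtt
The Bcl6 stretch holds 3 matches to TTCNNNGAA, which begin 168, 122 and 88 bases before the start. Of all windows, 0.0274% hold 3 or more. This window was picked for its matches in a called gene, so that share does not test how unusual it is. The Fcer2a stretch holds 1 match to TTCNNNNGAA, 168 bases before the start. Socs3 holds TTCTTAGAA 154 bases before its start, and the windows of Pim1, Mcl1, Prdm1 and Cish hold 0. Myc and Ccnd2, which were also called higher in B1a cells, had no window and were not searched. These matches describe the sequence, and binding was not measured in these files.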

How the data were processed

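RNA-Seq libraries of wild-type B1a (n = 2) and B2 cells (n = 2) were used. Reads had been aligned to mm10 and assigned to RefSeq genes with RSEM (version 1.2.29 in the submitters' processing notes, whereas the methods name another). The authors deposited unnormalized expected counts for 21970 entries. The authors also deposited TPM, which is scaled to one total per library, and a signal value, the posterior standard deviation of each count.

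Entries of one symbol were summed and the sums rounded. Genes that passed filterByExpr (12078) were scaled with TMM factors and entered the quasi-likelihood test of edgeR 4.0.16 in R 4.3.3. P-values were adjusted by Benjamini-Hochberg over these genes, with 0.05 as the threshold, and SEs were derived from the F statistic. The biological coefficient of variation was 0.507. The procedure was checked on simulated data with larger changes than those of the members and the same spread in both cell types. That check therefore cannot vouch for the calls made here. EBSeq, named in the methods, was not run. P-values measure the spread between these libraries, and the methods describe 2 mice per group. Floors of 3 counts cover counting error only. Replicate numbers come from sample titles.

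The members and lists were chosen with earlier results of these data known. Named genes are the members, Stat2, every called gene of a pathway list and the 2 of each list with the largest absolute log2 fold change. Csf2rb2 was added as the paralog of Csf2rb, and Socs3 and other target genes are named for their motif searches. Ifngr2, Il10ra, Ifnar1, Ifnar2, Il12rb2, Crebbp and Ep300 were added with their values in view. Single T cell, NK cell and macrophage markers were picked with their values in view. Positions and promoter windows are from RefSeq (GRCm38.p6, the build of the files) and exons from GENCODE. All 9 members had a window. Some items are not reported here.

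The alternatives were DESeq2 1.42.0, upper quartile factors, limma-voom (limma 3.58.1), voom weights by cell type, a minimum of 10 counts in each library, a filter at 1 count, limma on TPM of genes with a mean of 1 or more (log2 with a pseudocount of 1 or 0.1), unsummed entries, a replicate block, calls limited to log2 fold changes of 1 or more in either direction, and leaving out single replicates.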

Additional observations from a re-analysis of the deposited data

How the results depend on the processing

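The count of called members, 1, became 4 with DESeq2, 2 with limma-voom, 5 when voom weighted the cell types, 2 with at least 10 counts in every library, 3 without a filter beyond 1 count, 2 on log2(TPM + 1) and 4 with the replicate block. With each replicate left out it lay between 0 and 7. The calls over all genes, 693 (512 higher in B1a and 181 higher in B2), became 1550 with DESeq2, 1415 with the weights, 1141 without the filter, 359 on log2(TPM + 0.1), where 196 were higher in B1a, and 1481 with the replicate block. On log2(TPM + 1), 266 of 499 calls were higher in B1a, and with upper quartile factors 444 of 664. They lay between 539 and 6143 with a replicate left out, with the larger numbers, 3953 and 6143, without B1a replicate 1 or 2, where the lone B1a library is assumed to vary like the B2 libraries. The 18 pathway calls became 31 with DESeq2, 30 with the weights and 30 with the replicate block, and lay between 14 and 50 with a replicate left out; 44 and 50 were reached without B1a replicate 1 or 2. The cause of these shifts was not tested. Stat5a changed sign without B1a replicate 1 (0.16) and without B2 replicate 1 (0.01), with -0.46 without B1a replicate 2 as the other end of its range, and the other members kept their direction in all alternatives. Same-numbered libraries did not deviate together (r = -0.0347, a single value since with 2 replicates per group the deviations mirror each other), so the numbers were not taken to pair the samples.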

Other observations

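Over the 4 libraries, the genes whose centred log2 CPM profile lay nearest to that of Stat4 (Euclidean distance, mean level of 10 CPM or more) were Stk17b at 0.06, Fancm at 0.10 and Mef2c at 0.11. Stk17b was found at 226 and 251 CPM in B1a and 562 and 656 CPM in B2 cells, and Mef2c, a B cell transcription factor, at 313 and 334 CPM in B1a and 808 and 839 CPM in B2 cells. Nearest to Jak3 were Hgsnat at 0.06, Gm14306 at 0.10 and Higd2a at 0.10. With 4 libraries such distances describe these libraries only.

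Mast cell markers summed to 46.1 and 16.5 CPM in B1a and 1.47 and 0.941 CPM in B2 cells, neutrophil markers to 0 in both B1a libraries and to 2.43 and 8.42 CPM in B2 cells, erythroid markers to 78.8 and 504 CPM in B1a and 36.1 and 80.8 CPM in B2 cells, and dendritic cell markers to at most 34.4 CPM in B1a and to 47.1 and 34.7 CPM in B2 cells. Of these lists, Cma1 (adjusted p = 0.0499) and Hba-a2 (adjusted p = 0.0278) were called higher in B1a cells by edgeR's quasi-likelihood test, and 0 neutrophil or dendritic cell genes were called among 1 and 6 tested (1 and 0 below 0.05 before adjustment, 0 and 0 called by DESeq2 and by limma-voom).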
